A study of Mus musculus with 41 samples.

Results

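The interferon regulatory factors (Irf genes) are a family of transcription factors that share a DNA-binding domain. The 8 genes described here are Irf1, Irf2, Irf3, Irf4, Irf5, Irf7, Irf8 and Irf9, and they were chosen by name: every probe set annotated to one of them was taken. They cover 14 of the 45101 probe sets on the array and 8 of the 18193 genes that have a probe set of their own. All 8 passed the filter on low signals, which left 11951 genes for testing.

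The study profiled RNA from flow-sorted B cell precursors of untreated C57BL/6 mice with wild-type Pax5 on 41 Affymetrix arrays, 1 array per RNA sample. Fractions F, E, D and C have 5 arrays each, and fractions B and A and the common lymphoid progenitor (CLP) have 7 each. CLP and the Hardy fractions A to F, lettered in order of maturation, are the stages of B cell development: by textbook knowledge A is the pre-pro-B stage, B the pro-B, C the late pro-B and large pre-B, D the small pre-B, E the immature B and F the mature B cell. The labels give no tissue, age, sort gate or pooling of animals, nor whether a replicate is another animal; p-values here therefore cover the spread between these samples alone, which may be technical.

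The family has several jobs. Irf4 and Irf8 are close relatives made mainly in blood cells; each binds composite DNA elements beside the ETS factors PU.1 (gene Spi1) and Spi-B (gene Spib), and in mice lacking both genes B cell development stops at the pre-B stage, before light chain genes are rearranged efficiently. Irf9 is the DNA-binding part of the complex, with Stat2, that carries the type I interferon signal to the interferon-stimulated response element. Irf1 is an activator induced by interferon gamma through gamma-activated sequences, Irf2 often opposes it on the same elements, and Irf3, Irf5 and Irf7 are switched on as proteins by pathogen sensors, so their mRNA level does not show their activity.

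The DNA elements through which these factors read and are read can be seen in promoter windows of 250 bases before to 50 after each gene's start, taken from RefSeq on build GRCm38.p6. The table held windows for 8 of the 8 Irf genes. The gamma-activated sequence was searched as TTCNNNGAA, which reads the same on both strands, and the other 2 elements on either strand: the interferon-stimulated response element as GAAANNGAAA and the ETS-IRF composite element as GGAANNGAAA. The Irf1, Irf8 and Irf2 windows are shown because they were the members with a match. In Irf1 (chr11:53769912-53769944, plus strand) and in Irf8 (chr8:120736175-120736225, plus strand) the capitals mark gamma-activated sequences, of which Irf8 has 2. In Irf2 (chr8:46739495-46739541, plus strand) the capitals mark the composite element and the response element, which overlap, and then a gamma-activated sequence.

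Irf1: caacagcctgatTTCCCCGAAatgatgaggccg

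Irf8: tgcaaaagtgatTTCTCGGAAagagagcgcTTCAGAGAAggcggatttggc

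Irf2: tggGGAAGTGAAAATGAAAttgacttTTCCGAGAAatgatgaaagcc

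The response element was in 3.99% of 27025 genes with a window, the composite element in 3.16% and the gamma-activated sequence in 9.55%. Among the Irf genes 1 of 8 held the response element, 1 of 8 the composite element and 3 of 8 the gamma-activated sequence. Of 20 interferon-stimulated genes with a window, 11 held the response element (55.0%). Rsad2 and Ifit1 are shown because they changed most between fractions C and B among those genes. Capitals mark the response element, here on the opposite strand, at chr12:26456551-26456584 (minus strand) for Rsad2 and chr19:34640773-34640825 (plus strand) for Ifit1.

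Rsad2: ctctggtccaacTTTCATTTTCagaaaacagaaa

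Ifit1: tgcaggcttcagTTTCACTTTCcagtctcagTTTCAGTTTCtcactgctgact

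A match describes the letters in the window and does not show a bound site. A window without a match says nothing of elements outside it.

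Fraction A stood apart from the other populations, and this touches every comparison with A. Its arrays agreed least with each other (mean correlation with the other A arrays 0.778 to 0.884, against 0.902 to 0.971 within the other 6 populations), and its Gapdh 3' to 5' probe ratio, a sign of RNA quality, was 6.40 to 33.8 in A. It was 4.14 to 10.8 in B, 3.56 to 5.08 in CLP and 3.80 to 6.73 in C, so it was also higher in most B arrays than in CLP, and its part in the changes of A and B was not tested. The NK cell genes Gzma (20157.1 to 51058.1 signal in A, 43.8 to 188.3 in CLP) and Ncr1 (661.7 to 3632.8 in A, 12.6 to 74.8 in CLP) were high in A. The B lineage factor Ebf1 averaged 197 in A and 3692 in CLP. Of other stage markers, Flt3 averaged 44 in F and 2336 in CLP, Enpep (the BP-1 antigen) was highest in C at 2015, Dntt was highest in B at 20207, and Ms4a1 (CD20) was highest in F at 21173. Medians over all probe sets were 69.7 to 92.7 on the B arrays and 69.1 to 146.4 on the A arrays, within a range of 69.1 to 153.1 over all 41 arrays.

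Of the 8 Irf genes, 7 differed among the 7 populations, and Irf4 and Irf8 did so by far the most. The moderated F-test of limma called Irf1, Irf2, Irf4, Irf5, Irf7, Irf8 and Irf9, and it called 73.3% of all genes. Between its highest and lowest population Irf4 spanned 5.36 on the log2 scale (adjusted p = 1.05e-19), more than 99.4% of the genes tested, and Irf8 spanned 2.81 (adjusted p = 2.72e-12). Irf9 spanned 1.66, Irf7 0.98, Irf1 0.97, Irf2 0.97 and Irf5 0.68. Irf3 spanned 0.28 and did not pass (adjusted p = 0.94). Differences are on log2(signal + 32), which understates changes of low signals, and levels are MAS5 signals, which are compared within a probe set and never between genes.

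**Figure D1:**
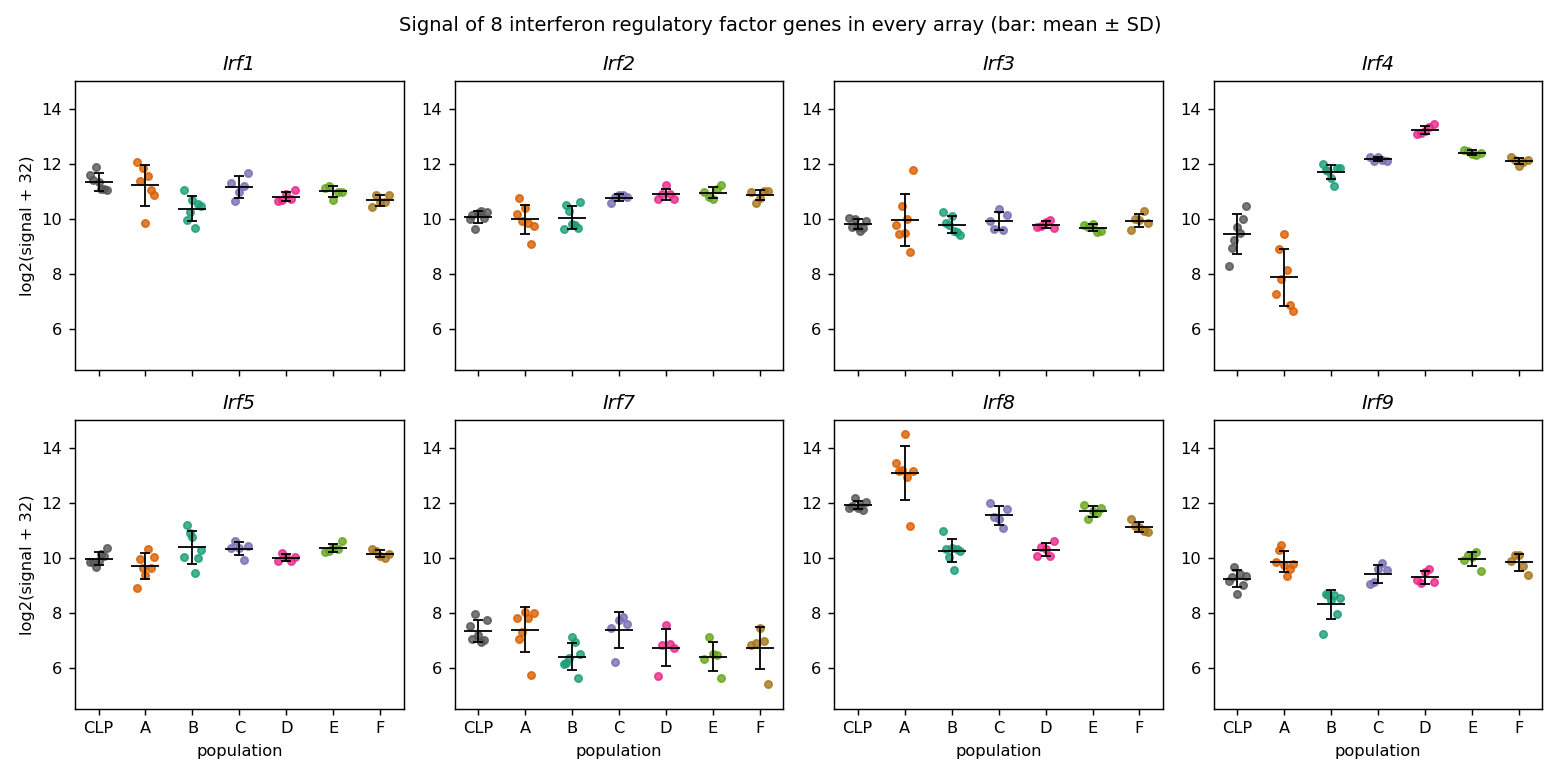
Log2(signal + 32) of each Irf gene on every array, in CLP and fractions A to F from left to right; points are arrays and bars give the mean ± SD. Irf4 is lowest in A and highest in D, Irf8 is highest in A and lowest in B and D, and Irf3 lies on a similar level in all 7 populations.

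Irf4, which drives light chain rearrangement in pre-B cells and later plasma cell formation, was low in CLP and lower still in A, and was high from B onwards with a peak in D. Its signal was 277.4, 685 and 1383.7 in CLP (lowest, median and highest of 7 arrays). It was 68.6, 190.2 and 669.9 in A and 2320.5, 3466.7 and 4046.3 in B. Every B array lay above every CLP and A array, while A and CLP overlapped. The C arrays read 4838.2, 4309.2, 4817.7, 4405.2 and 4351.5. The D arrays read 8500.9, 8827.2, 9260.9, 10251.4 and 11015. All D arrays were above all arrays of the other 6 populations. The E arrays read 5786.2, 5618.6, 5181.8, 5000.3 and 5291.9, and the F arrays 4823.4, 4433, 3824.4, 4195.5 and 4478.4. E and F lay close to C and did not overlap with each other. These signals are those of the brighter probe set, 1421173_at. On the other set, 1421174_at, the D arrays (2105.9 to 3661.3) overlapped with B (478.7 to 2469.7) and C (1681.9 to 2318.8). B also overlapped there with CLP (103 to 635.3), and F (816.7 to 1866.1) with E (1168.2 to 1925.2). The share of all genes whose arrays separate like this is not given here, so separation is a description and not a call.

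Irf8, which with PU.1 directs macrophage and dendritic cell development and also acts in B cell precursors, had nearly the reverse course early and a second rise and fall later. Its signal was 3324.2, 3703.9 and 4512.3 in CLP (lowest, median and highest). It was 2224.8, 9114.6 and 22879.2 in A and 714.3, 1243.7 and 1963.3 in B. A held the highest arrays and its spread was the widest, with array 6 below all CLP arrays and the other 6 above them all. B lay wholly below CLP and A. The C arrays read 3995.5, 2840.7, 2688.7, 2139.3 and 3406.6, and the D arrays 1027.3, 1318.2, 1233.4, 1040.5 and 1540.8. The E arrays read 3772, 2672.2, 3250.4, 3092 and 3561.7, and the F arrays 2647.8, 2237.4, 2161.2, 1984.3 and 1899.5. C was above B without overlap, D was below C, and E was above D and F. These signals are those of the brighter probe set, 1416714_at. On the other set, 1448452_at, C (857.5 to 2015.2) overlapped with B (320.9 to 1082.8). A array 6 read 4295.6 there, above all CLP arrays (1439.5 to 1934.5), and the other separations held. In bulk RNA of sorted cells, a change in the share of cells that express a gene and a change in RNA per cell cannot be told apart.

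By Irf4 level the order was D, then E, C, F, B, CLP and last A. The neighbours B and CLP differed (adjusted p = 5.21e-08) and so did CLP and A (adjusted p = 1.85e-05), while no neighbours from D down to B passed the test. Over wider steps D was above B by 1.53 (adjusted p = 1.48e-04, 30.7% of all genes called in that pair), and F relative to D differed by -1.13 (adjusted p = 0.0156, 11.5% called). In the order of Irf8 levels A was followed by CLP, E, C, F, D and B, and A and CLP were the only neighbours that differed (adjusted p = 2.25e-04). F exceeded B in Irf8 by 0.85 (adjusted p = 0.0106, 40.4% called).

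The contrast of Irf4 with Irf8 was read from the difference of their log2(signal + 32) on the same array, here called the log2 ratio, from which a shift of all log2 values of an array cancels. Only its change between populations has a meaning, since the signals of different probe sets are not on a common scale. The log2 ratio of Irf4 to Irf8 averaged -2.46 ± 0.72 for CLP, -5.21 ± 0.88 for A and 1.43 ± 0.26 for B (SD, n = 7 each). It averaged 0.62 ± 0.32 for C, 2.93 ± 0.21 for D, 0.72 ± 0.20 for E and 0.99 ± 0.17 for F (SD, n = 5 each). A and D hold the extremes. Arrays of the 2 populations did not overlap in any of the 8 comparisons except F against E.

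The largest turn was between A and B. The log2 ratio was 1.03 to 1.69 in the B arrays and -6.51 to -4.25 in the A arrays, a change of 6.64 in B relative to A, or 99.9-fold, by a two-sided exact permutation test (p = 5.83e-04, the smallest that 7 against 7 arrays can give, adjusted p = 0.00155 over 8 comparisons). Skipping A, the ratio was 14.9-fold higher in B than in CLP (log2 change 3.89, exact permutation adjusted p = 0.00155). In A relative to CLP the log2 change was -2.75 with the same p. Irf4 reached the array median on 5 of 7 A arrays, and with the other probe set on 2 of 7, so the sizes of the changes against A rest on low Irf4 signals and on the constant of 32. D then stood apart from both of its neighbours. The D arrays had log2 ratios of 3.01, 2.71, 2.88, 3.26 and 2.81, against 0.27, 0.60, 0.83, 1.03 and 0.35 in the C arrays. The ratio rose by 2.32 in D relative to C, 4.99-fold, and fell by 2.22 in E relative to D (exact permutation p = 0.00794 for each, the smallest that 5 against 5 can give, adjusted p = 0.00907). F and E overlapped, and the change of 0.27 did not pass (exact permutation adjusted p = 0.0556). From CLP to F the whole shift was 3.45, 10.9-fold higher in F than in CLP (exact permutation adjusted p = 0.00253).

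Between B and C the ratio depended on the probe sets. With the brighter probe set of each gene it was lower in C than in B by 0.82, a change of -0.82 (exact permutation adjusted p = 0.00404). With the other probe set of each gene, chosen as a check after the data were seen, the change was 0.07 (exact permutation adjusted p = 0.823). Over the 7 population means the 2 Irf4 probe sets had a correlation of 0.987 and the 2 Irf8 probe sets 0.978, as a description without a test.

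**Figure D2:**
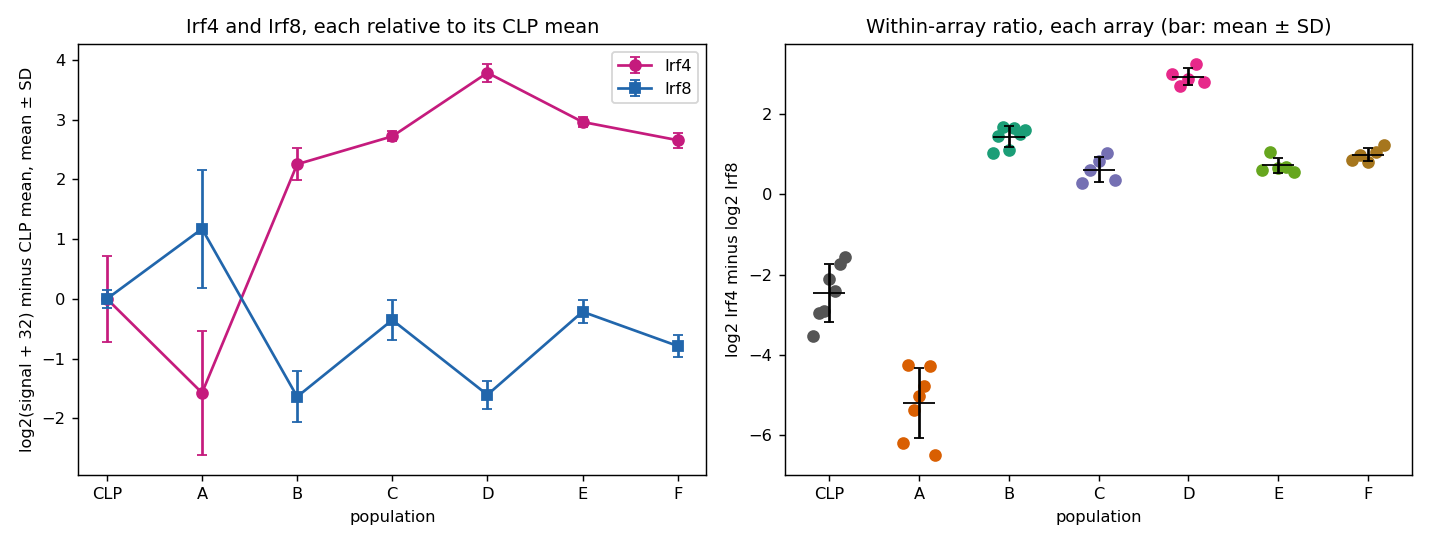
Left, Irf4 and Irf8 as log2(signal + 32) minus the gene's own mean in CLP, mean ± SD over arrays; right, the log2 ratio of Irf4 to Irf8 on each array, with populations in order from CLP to F. The ratio is lowest in A, at -6.51 to -4.25, and highest in D, at 2.71 to 3.26; 0 on the ratio axis has no meaning of its own.

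Between A and CLP, 3 of the 8 Irf genes were called, 2 up and 1 down, where 37.1% of all genes were called (11.5% up, 25.6% down). The median log2 difference of the 8 was -0.02, beside -0.23 for all genes tested. Of all genes called, 31.0% were higher in A as deposited and 53.4% after centring each array on its median. Irf8 rose by 1.17 ± 0.25 (SE), 2.26-fold (limma, adjusted p = 2.25e-04), and Irf4 fell by 1.57 ± 0.28, 2.98-fold (limma, adjusted p = 1.85e-05). Irf9 rose by 0.63 ± 0.21 (limma, adjusted p = 0.0170), with 614.2, 843.4 and 1361.2 in A and 381.5, 601.8 and 779.5 in CLP (lowest, median, highest), and its groups overlapped. Irf9 no longer passed when CLP array 4 was left out (adjusted p = 0.0502) and in a limma fit of A and CLP alone (adjusted p = 0.0698). The Irf8 call stands beside a wide spread in A: array 6 read 2224.8 and array 4 read 22879.2 with the brighter probe set. The other probe set, 1448452_at, read 2886.2 to 4894.9 in A and 1439.5 to 1934.5 in CLP without overlap and gave 1.21 (adjusted p = 1.96e-05). Without A arrays 4, 6 and 7, which agreed least with the rest, Irf8 differed by 1.28 and Irf4 by -1.42, and both remained called.

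The NK cell and plasmacytoid dendritic cell marker lists had higher sums in A than in CLP, and Irf8 was higher in A as well. Of all genes tested, 11.5% rose and 25.6% fell in A relative to CLP. Of 11 NK markers tested 10 rose and 0 fell in A relative to CLP, and the summed signal of the list was 42551 to 77822 in A and 2101 to 3362 in CLP. Of 8 plasmacytoid dendritic cell markers 5 rose and 0 fell, with sums of 14553 to 31319 in A and 8264 to 12742 in CLP. The defining marker Siglech was 1928.5 to 7144.5 in A and 554.3 to 1585.1 in CLP. Among the A arrays neither sum followed the order of the Irf8 signals. Array 6, lowest in Irf8 (2224.8), had sums of 70152.5 for NK and 14567.5 for plasmacytoid dendritic cell markers. Array 4, highest in Irf8 (22879.2), had 70395.2 and 21032.1. Plasmacytoid dendritic cells are known for high Irf8, but the part of either cell type in the Irf8 result was not tested. Myeloid markers, of which 0 rose and 7 of 12 fell, had overlapping sums. Plasma cell markers were lower in A together with Irf4: of 5 tested 0 rose and 3 fell, and the sums over 6 were 1158 to 4963 in A and 6361 to 28438 in CLP, without overlap. Among the 7 CLP arrays the order of these sums was the order of the Irf4 signals, lowest on array 1 (6361 and 277.4) and highest on array 7 (28438 and 1383.7). Among the A arrays it was not: array 4 had the highest Irf4 signal (669.9) with a sum of 1219.8, and array 1 had 119.6 with 3830. The sums were 2793 to 6122.5 in B, with Irf4 at 2320.5 to 4046.3. They were 5768.7 to 6757.3 in D, with Irf4 at 8500.9 to 11015. The part of plasma cells in the Irf4 result was not tested.

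Between B and A, 6 of the 8 Irf genes were called, 2 up and 4 down, where 31.3% of all genes were called (16.9% up, 14.5% down). The median log2 difference of the 8 was -0.52, beside 0.02 for all genes (0.21 after centring on array medians). Of all genes called, 53.8% were higher in B as deposited and 72.1% after centring. Irf4 rose by 3.83 ± 0.28, 14.2-fold (limma, adjusted p = 4.20e-15), and Irf8 fell by 2.81 ± 0.25, 7.02-fold (limma, adjusted p = 1.70e-12). Irf9 fell by 1.56 ± 0.21 (limma, adjusted p = 1.23e-07), with 115.7, 339.7 and 378.9 in B against 614.2, 843.4 and 1361.2 in A and no overlap. Irf1 fell by 0.86 ± 0.22 (adjusted p = 0.00286), and Irf7 fell by 0.98 ± 0.33 (adjusted p = 0.0203). Irf5 rose by 0.68 ± 0.20 (adjusted p = 0.00858) with its brighter probe set, but its other probe set gave -0.05. In a limma fit of B and A alone, Irf4, Irf8 and Irf9 were called, and Irf1 (adjusted p = 0.0883), Irf7 (adjusted p = 0.0958) and Irf5 (adjusted p = 0.175) were not. That fit called 1368 of 10659 genes. The NK markers fell in the same step, 10 of 11 with 0 rising, and so did 7 of 8 plasmacytoid dendritic cell markers, and their part in the Irf changes was not tested.

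Skipping A, 5 of the 8 Irf genes were called between B and CLP, 1 up and 4 down, where 27.9% of all genes were called (8.81% up, 19.1% down). Irf4 rose by 2.25 ± 0.28, 4.77-fold (limma, adjusted p = 5.21e-08), and Irf8 fell by 1.64 ± 0.25, 3.11-fold (limma, adjusted p = 2.42e-06). Irf1, Irf7 and Irf9 were lower in B by 0.97 (1.96-fold), 0.94 (1.92-fold) and 0.93 (1.91-fold) on the values as deposited. Those 3 calls need a caution about scale. The median of all genes was -0.20 with the authors' scaling and 0.22 after centring each array on its median. After that centring 3 of the 8 were called, Irf4 up by 2.68, Irf5 up by 0.83 and Irf8 down at -1.21, while Irf1 was at -0.55 (adjusted p = 0.0602), Irf9 at -0.51 (adjusted p = 0.0803) and Irf7 at -0.51 (adjusted p = 0.289). Of all genes called, 31.6% were higher in B as deposited and 74.7% after centring, which called 3494 of 11951 genes. The opposite courses of Irf4 and Irf8 held under both scalings.

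Between C and B, 5 of the 8 Irf genes rose and 0 fell, where 22.9% of all genes were called (14.2% up, 8.75% down). The median log2 difference of the 8 was 0.76, beside 0.19 for all genes. Irf8 rose by 1.29 ± 0.27, 2.44-fold (limma, adjusted p = 4.20e-04). Irf9 rose by 1.12 ± 0.23, 2.17-fold (limma, adjusted p = 3.63e-04), with 493.8, 522, 739.8, 852.6 and 709.6 in C and 115.7, 339.7 and 378.9 in B, without overlap. Irf1 rose by 0.79 ± 0.24 (adjusted p = 0.0159), with 2464, 1552.9, 1967.4, 2309.2 and 3211.4 in C against 767, 1357 and 2094.9 in B, and the call was lost without C array 5 (adjusted p = 0.0744). Irf2 rose by 0.73 ± 0.20 (adjusted p = 0.00665), with 1468.9 to 1804.8 in C and 751 to 1512.2 in B, and Irf7 by 0.96 ± 0.36 (adjusted p = 0.0498). With its brighter probe set Irf4 was higher in every C array than in every B array. That difference of 0.47 did not pass (adjusted p = 0.281). Its other probe set gave 1.21 (adjusted p = 0.0157), with C and B arrays overlapping. After centring on array medians the median of all genes was -0.23, and 2 of the 8 remained called, Irf8 at 0.86 (adjusted p = 0.0470) and Irf9 at 0.70 (adjusted p = 0.0300). Of all genes called, 61.8% were higher in C as deposited and 19.3% after centring, which called 2838 of 11951 genes.

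Between D and C, 2 of the 8 Irf genes were called, Irf4 up and Irf8 down, where 21.3% of all genes were called (7.51% up, 13.8% down). Irf4 rose by 1.06 ± 0.33, 2.09-fold (limma, adjusted p = 0.0159), and Irf8 fell by 1.25 ± 0.29, 2.38-fold (limma, adjusted p = 0.00149). With the brighter probe set of each gene the D and C arrays did not overlap, while they did on the other Irf4 probe set. The other Irf4 probe set gave 0.46 (adjusted p = 0.455), and the other Irf8 probe set gave -1.62 (adjusted p = 7.98e-06). The median log2 difference of the 8 was -0.24, beside -0.10 for all genes, and Irf9 differed by -0.13 and Irf2 by 0.12 without passing.

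Between E and D only Irf8 was called of the 8, upward, where 8.11% of all genes were called (3.90% up, 4.21% down). Irf8 rose by 1.39 ± 0.29, 2.62-fold (limma, adjusted p = 7.35e-04). Irf4 was lower in every E array than in every D array, with a difference of -0.82 ± 0.33 that did not pass in the fit of all populations (adjusted p = 0.135) and passed in a fit of these 2 populations (adjusted p = 2.33e-07). Irf9 differed by 0.67 ± 0.25 (adjusted p = 0.102), with 920.8, 1056, 1012.9, 1152.1 and 705.4 in E and 549.4, 500.7, 675.5, 741 and 516 in D, and it too passed in the fit of 2 populations (adjusted p = 0.00247). The fit of 2 populations called 2964 of 9624 genes. The spread of the whole fit includes the A arrays, which varied most.

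Between F and E 0 of the 8 Irf genes were called by limma, where 0.469% of all genes were called (0.251% up, 0.218% down), and 0 of the 8 had an unadjusted p under 0.05. Irf8 was lower in every F array than in every E array, with a difference of -0.57 ± 0.29 (adjusted p = 0.837). With its brighter probe set Irf4 was too, with -0.31 ± 0.33 (adjusted p = 1), but on its other probe set F and E overlapped. The share of all genes whose F and E arrays separate is not given here, so neither separation is read as a call. In the limma fit of these 2 populations both passed (adjusted p = 0.00523 for Irf8 and 0.0343 for Irf4), where 633 of 9547 genes were called.

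Over the whole path, 5 of the 8 Irf genes were called between F and CLP, 3 up and 2 down, where 42.0% of all genes were called (15.2% up, 26.7% down). The median log2 difference of the 8 was 0.16, beside -0.15 for all genes. Irf4 rose by 2.66 ± 0.30, 6.31-fold (limma, adjusted p = 1.84e-09), Irf2 rose by 0.80 ± 0.20 (adjusted p = 0.00145) and Irf9 rose by 0.60 ± 0.23 (adjusted p = 0.0344). Irf8 fell by 0.79 ± 0.27 (adjusted p = 0.0165) and Irf1 fell by 0.67 ± 0.24 (adjusted p = 0.0251). F and CLP arrays overlapped for Irf9. Irf1 no longer passed when CLP array 3 was left out (adjusted p = 0.0629) or F array 1 (adjusted p = 0.0674), nor did Irf9 without CLP array 4 or 6 or F array 1, 2 or 3 (adjusted p = 0.0602 to 0.0918), so that 3 genes were called without F array 1.

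**Figure D3:**
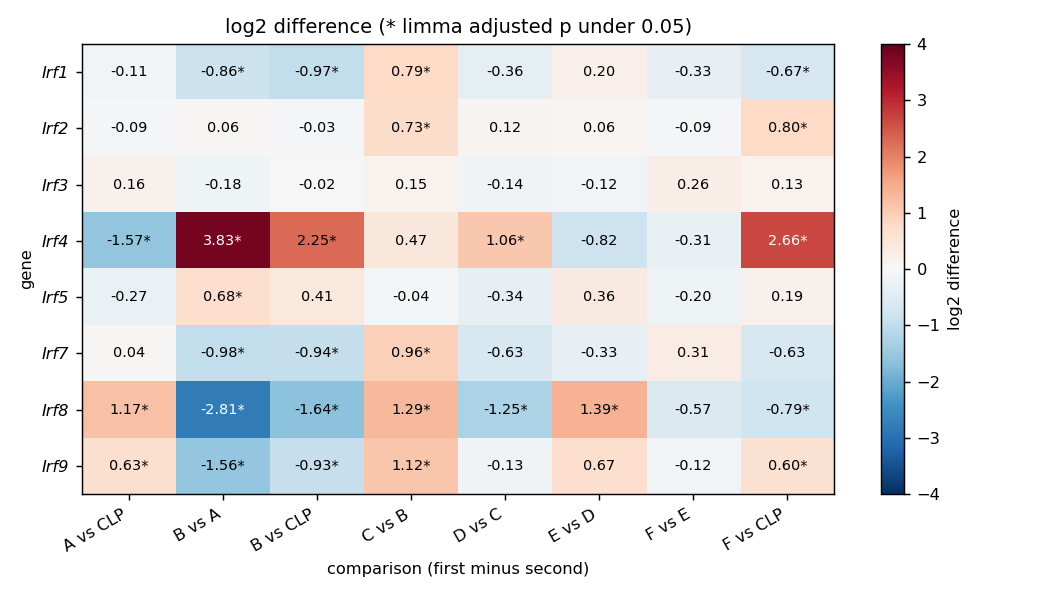
Log2 difference of each of the 8 Irf genes (rows) in 8 comparisons (columns), first-named population minus second; an asterisk marks a limma adjusted p under 0.05. Irf4 and Irf8 have opposite signs in every column but C vs B and F vs E, and Irf3 has no asterisk.

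Irf9, the DNA-binding part of the interferon signalling complex, had its lowest level in B. The order was E, A, F, C, D, CLP and B, and only CLP and B differed among neighbours (adjusted p = 7.98e-04). After centring on array medians B was lower than CLP by 0.51, which did not pass (limma, adjusted p = 0.0803). On the values as deposited its partner Stat2 rose by 1.06 ± 0.24 in A relative to CLP and fell by 1.64 ± 0.24 in B relative to A. It rose by 0.89 ± 0.26 in C relative to B, and each of these changes was called. The F arrays of Irf9 read 898.2, 1059.5, 1073.6, 797.2 and 629.7, close to E.

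As deposited, Irf1, the interferon gamma-induced activator, was lowest in B (767, 1357 and 2094.9, lowest, median and highest array) and highest in CLP (2066.7, 2518.3 and 3726.8). After centring on array medians it was at 0.12 in A, -0.55 in B and -0.70 in F relative to CLP. Both ends of its order therefore depended on the scaling. No neighbours in its order CLP, A, C, E, D, F and B differed. A was wide, at 875.8, 2579.6 and 4258.4, and D, E and F lay between 1321.1 and 2317.5.

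Irf2, its frequent opponent, was lower in CLP, A and B than in the later fractions. The CLP arrays read 745.7, 1094.5 and 1193 (lowest, median and highest), the A arrays 507.9, 922.3 and 1669.2 and the B arrays 751, 849.7 and 1512.2. C, D, E and F together ranged from 1468.9 to 2349.2. All arrays of these 4 lay above all CLP arrays, and C and CLP were the only neighbours in its order that differed (0.70, adjusted p = 0.0205, 8.30% of all genes called in that pair).

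Irf7, which amplifies type I interferon production, was close to the limit of the arrays. It reached its array's median on 17 of 41 arrays. The lowest, median and highest signals were 91.3, 115 and 212 in CLP, 20.8, 191 and 227.8 in A and 17, 50.1 and 104.6 in B. The C arrays read 139.7, 41.8, 182.6, 196.7 and 157.7, and D, E and F together ranged from 10 to 154.5. Its calls against B rest on these low signals: leaving out B arrays 1 and 4 gave an adjusted p of 0.0528 for C against B, and leaving out single arrays gave 0.0132 to 0.130, with the call lost in 9 of 12 cases. For B against CLP the call was lost on leaving out any of 6 single arrays of 14 (adjusted p up to 0.0725), and for B against A on leaving out B array 6 (adjusted p = 0.0554).

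Irf3, the sensor-activated factor made in most cells, was level on its brightest probe set. That probe set, 1426111_x_at, has a suffix that Affymetrix gives to sets sharing sequence with other transcripts. Its median was highest in F (953.6) and lowest in CLP (797.7), and A array 7 read 3446.5 against 410.6 to 1357.7 in the other A arrays. The 3 other Irf3 probe sets followed it loosely, with correlations of 0.234 to 0.511 over the 7 means. Of these, 1438721_a_at was lower in B than in CLP (adjusted p = 0.0134) and higher in C than in B (1.03, adjusted p = 0.0217), so the probe sets disagree.

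Irf5, which acts below Toll-like receptors and in B cells, also split by probe set. The brighter set was highest in B (666.9, 1198.6 and 2307.5, lowest, median and highest) and lowest in A (447, 763.4 and 1249.7). The other set, 1460231_at, read 776.5, 898.4, 723.4, 712.2 and 768.5 in F and 739.2, 551.1, 759, 688.1 and 850.8 in E, against 171, 378.8, 492.9, 245 and 350.9 in D. It was 110.1 to 299.3 in CLP, so it was higher in every E and F array than in every D and CLP array. It rose by 1.12 ± 0.29 in E relative to D (limma, adjusted p = 0.00815) and by 1.68 ± 0.27 in F relative to CLP (limma, adjusted p = 1.82e-06). Over the 7 means the 2 sets had a correlation of 0.392.

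Among the factors that bind DNA beside Irf4 and Irf8, Spib was called upward and Etv6 downward between F and CLP, Etv6 at -2.85 ± 0.26 (limma, adjusted p = 4.54e-12). Spib rose by 0.85 ± 0.23 in B relative to CLP, by 1.00 ± 0.25 in C relative to B and by 0.94 ± 0.27 in D relative to C, and was higher in F than in CLP by 2.80 ± 0.25 (limma, adjusted p = 4.68e-12). Spi1 rose by 1.01 ± 0.31 in A relative to CLP (adjusted p = 0.00896) and in none of the other 7 comparisons. Tcf3, an E protein, rose by 2.07 in B relative to A. Batf, a partner of Irf4 in other lymphocytes, fell by 2.24 in B relative to CLP. Of 6 partners tested, 2 rose and 2 fell between F and CLP, where 15.2% of all genes rose and 26.7% fell. Between D and C 1 rose and 3 fell (7.51% and 13.8% of all genes), and 0 changed between E and D (8.11% called).

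Among 14 tested genes tied to Irf4 or Irf8 in B cells, 7 rose and 1 fell in B relative to A, with a median of 1.51. Of all genes tested, 16.9% rose and 14.5% fell in that comparison. Ebf1 rose by 5.02 and Igll1, part of the surrogate light chain, by 4.81, while Prdm1, a transcriptional repressor and plasma cell marker, fell by 1.36. Between E and D 5 fell and 0 rose (4.21% and 3.90% of all genes), with Rag2 at -3.17 and Vpreb1 at -2.98. Ikzf3 (Aiolos), reported as an Irf4 and Irf8 target in mouse pre-B cells, rose by 1.86 in A relative to CLP and was higher in F than in CLP by 3.19 ± 0.32 (limma, adjusted p = 5.50e-11). Its step of 0.74 in D relative to C did not pass (adjusted p = 0.119). Ikzf1 (Ikaros) was called only between F and CLP, at -0.38.

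Receptors and kinases of interferon signalling fell between A and B. Of 11 tested genes 1 rose and 9 fell in B relative to A, with a median of -1.25: Ifngr2 rose by 1.73, and Stat2 and Ifngr1 fell by 1.64 and 1.58. In A relative to CLP 6 rose and 2 fell. In C relative to B 4 rose and 0 fell, with Usp18, a brake on interferon signalling, up by 1.78, and after centring on array medians 1 rose. Among 16 sensors and kinases upstream of Irf3, Irf5 and Irf7, 1 rose and 6 fell in B relative to A, and 7 rose and 0 fell in C relative to B (4 and 1 after centring). Tlr4, the lipopolysaccharide receptor, rose by 2.52 in C relative to B and fell by 3.25 in D relative to C. In D relative to C 1 rose and 4 fell. Of all genes tested, 16.9% rose and 14.5% fell in B relative to A, and 11.5% and 25.6% in A relative to CLP. The shares were 14.2% and 8.75% in C relative to B as deposited, and 7.51% and 13.8% in D relative to C.

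The interferon-stimulated genes were higher in C than in B and D. Their mean log2 signal over 26 tested genes was 7.81 to 8.37 in the B arrays, 9.31 to 10.24 in C and 8.15 to 8.30 in D, and no C array overlapped with either. The CLP arrays, at 9.15 to 9.64, overlapped with C. Of the 26, 23 rose and 0 fell in C relative to B, with a median of 1.45 (18 and 0 after centring on array medians, median 1.03). Rsad2 (viperin) rose by 4.40 ± 0.66 (limma, adjusted p = 2.86e-06) and Ifit1 by 2.79 ± 0.41 (limma, adjusted p = 2.66e-06). In D relative to C 0 rose and 20 fell, with a median of -1.56: Isg20 fell by 2.84 and Rtp4 by 2.70. In B relative to CLP 0 rose and 19 fell, with a median of -1.09. In E relative to D 5 rose and 0 fell, and in F relative to E 0 changed (0.469% of all genes called). Of all genes tested, 14.2% rose and 8.75% fell in C relative to B, and 7.51% and 13.8% in D relative to C. The shares were 8.81% and 19.1% in B relative to CLP, and 3.90% and 4.21% in E relative to D. The list, like the others here, was drawn up with earlier results of these data known.

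Markers of other cells moved with these levels in C. Of all genes tested, 14.2% rose and 8.75% fell in C relative to B. Of 12 myeloid markers 10 rose and 0 fell in C relative to B, and their summed signal was 4918 to 23635 in B, 60103 to 85604 in C and 18852 to 25428 in D. S100a8, a defining neutrophil marker, was 14468.3 to 20445.3 in C and 342.6 to 2735.8 in B. Of 11 NK markers 8 rose, and of 8 plasmacytoid dendritic cell markers 3 rose, with Siglech at 183.9 to 1659.9 in C and 27.5 to 131.9 in B. Bst2 is on both the plasmacytoid dendritic cell list and that of interferon-stimulated genes. The part of these cells in the rise of Irf8, Irf9 and Irf1 and of the interferon-stimulated genes in C was not tested. Between E and D, where Irf8 rose and 8.11% of all genes were called, 0 of 12 myeloid and 0 of 8 plasmacytoid dendritic cell markers were called. The myeloid sums were 18852 to 25428 in D, and in E they were 106551 on array 2 and 13022 to 28576 on the others. The plasmacytoid dendritic cell sums were 4311 to 4944 in E and 3858 to 4649 in D. The part of these cells in that step was not tested.

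**Figure D4:**
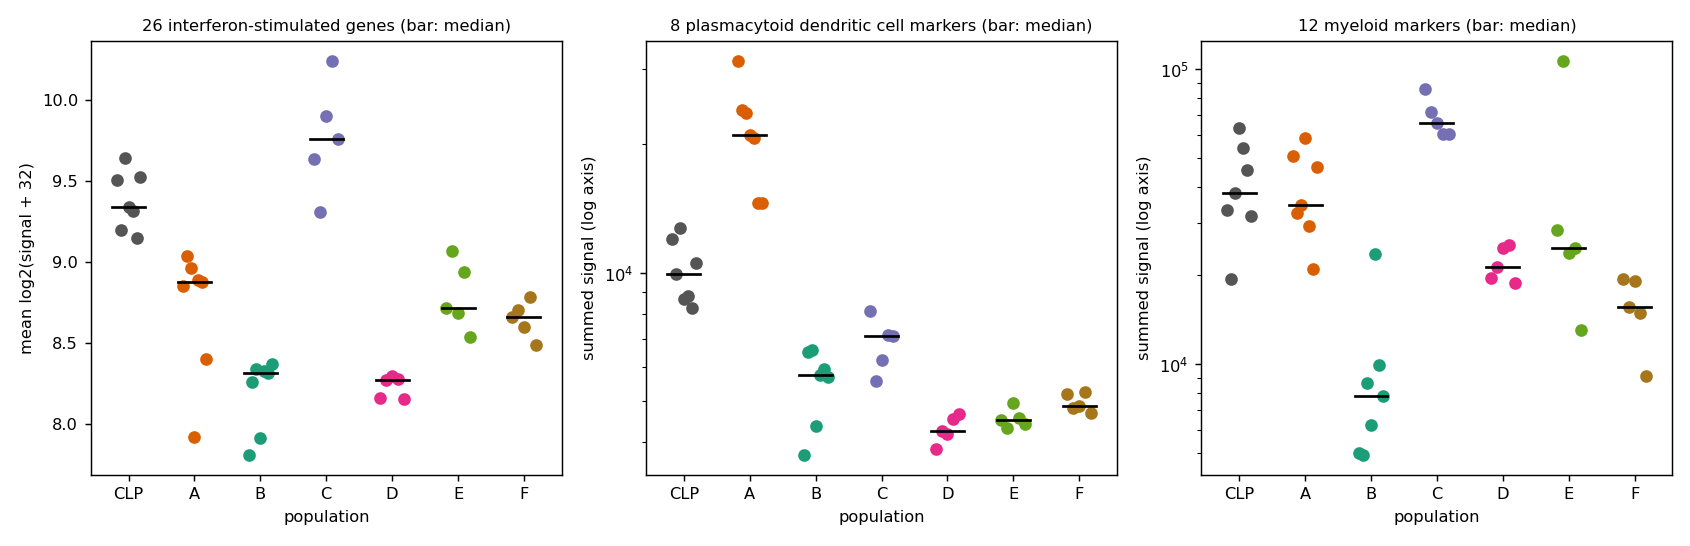
Left, mean log2(signal + 32) of 26 interferon-stimulated genes. Middle and right, summed signal (log axis) of 8 plasmacytoid dendritic cell markers and 12 myeloid markers. Bst2 is in both the left and the middle list. Points are arrays, bars are medians, and populations run from CLP to F. In C the interferon-stimulated genes are at 9.31 to 10.24, overlapping with CLP at 9.15 to 9.64, and the myeloid sums at 60103 to 85604; the plasmacytoid dendritic cell sums are highest in A, at 14553 to 31319.

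Genes whose course over the 7 population means was most like each member were named by Pearson correlation among 7659 genes that span at least 1 on the log2 scale, as a description with n = 7 means and no test. For Irf4 they were Pfn2 (0.989), Bach2 (0.986), Eps8 (0.985), Mss51 (0.984) and Rrm2b (0.983). Bach2, a repressor of plasma cell genes, averaged 2426 (CLP), 1923 (A), 7003 (B), 7839 (C), 13220 (D), 7436 (E) and 8037 (F), and so was lowest in A and highest in D as Irf4 was. For Irf8 they were Aif1 (0.993), Timp2 (0.993), Dnajc1 (0.981), Mfsd2a (0.979) and Rinl (0.975). Aif1, a macrophage gene, averaged 139 (CLP), 501 (A), 28.6 (B), 102 (C), 15.4 (D), 100 (E) and 55.3 (F), with its low points in B and D. Outside A these averages lie near or below the array medians of 69.1 to 153.1, and the A arrays ran from 3.6 to 776.4. Mfsd2a, at averages of 55.3 (D) to 142 (A), is low as well, so both courses rest on low signals.

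The nearest genes of the other members were Wls (0.978), Mtus1 (0.973) and Orai3 (0.969) for Irf1, 6330407A03Rik (0.983), Bsdc1 (0.982) and Slc38a9 (0.981) for Irf2, and Gramd1a (0.854), H2-Bl (0.849) and Epha1 (0.832) for Irf3. They were Npepps (0.968), Mtmr4 (0.950) and Cep89 (0.942) for Irf5, S100a1 (0.970), Tex261 (0.970) and Cgrrf1 (0.967) for Irf7, and Atxn7l1 (0.984), Dennd1c (0.977) and Saxo1 (0.973) for Irf9. H2-Bl (averages 43.6 in B to 124 in A), Epha1 (63.4 in B to 200 in A) and Saxo1 (61.8 in B to 172 in F) also lie close to the array medians. Among the members themselves the correlation over the 7 means was -0.81 between Irf4 and Irf8, 0.81 between Irf4 and Irf2, and 0.80 between Irf1 and Irf8.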

How the data were processed

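The members and the gene lists were chosen with earlier results of these data known. Biotin-labelled RNA, extracted with PicoPure and amplified with the Ovation Pico system per the labels, was hybridised to the arrays. The authors deposited intensity values as MAS5 signals; the submitters' processing notes name the method only. The signals had already been scaled: trimmed by 2% at each end, every array averaged 500.

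Where a gene had several probe sets, the brightest by mean was used. A gene entered the tests if it was at or above the array median on 5 or more arrays, which 11951 were. Log2(signal + 32) was fitted with limma 3.58.1 in R 4.3.3, all 41 arrays and 7 population means together, with trended and robust variance estimates, and p-values were adjusted by Benjamini-Hochberg over all genes at 0.05. The ratio of Irf4 to Irf8 was tested by two-sided exact permutation, adjusted over 8 comparisons. Each population's 5 or 7 arrays set the precision. No 2 arrays were identical (highest correlation 0.982). Named genes are the 8 members, the nearest genes (5 each for Irf4 and Irf8, 3 for each other member), up to 2 called genes per direction and list with the largest change, and Spi1, Spib, Ikzf1, Ikzf3 and Stat2. Stage and cell type markers were named to check the labels. The code was tested on simulated data. Alternatives tried were other pseudocounts, filters, scalings, probe set rules, fits and sets of arrays.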

Additional observations from a re-analysis of the deposited data

Results flagged for a closer look

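Of 63 groups of arrays examined (8 genes and the log2 ratio in 7 populations), 4 held an array whose gap to its neighbour took most of the group's range, where chance gives about 1 in 20. Irf8 in A was highest on array 4 at 22879.2, with 2224.8 to 11126.7 on the others. Irf3 in A was highest on array 7 at 3446.5, with 410.6 to 1357.7 on the others. Irf2 in C was lowest on array 1 at 1468.9, with 1719.4 to 1804.8 on the others. The log2 ratio of Irf4 to Irf8 in E was highest on array 2 at 1.06, with 0.57 to 0.69 on the others. That array also had the highest myeloid marker sum in E, 106551 against 13022 to 28576 on the others. The part of myeloid cells in its ratio was not tested.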

How the results depend on the processing

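Over all alternatives, members called in the report stayed called with the same sign in 643 of 692 cases, lost the call in 49 and turned sign in 0. Uncalled members stayed so in 802 of 874, were called in 20 and turned sign in 52. Many of these cases left out a single array and so shared nearly all data. Without them, called members stayed called in 322 of 346 cases and lost the call in 24. Uncalled members then stayed so in 411 of 452, were called in 19 and turned sign in 22. The count of Irf genes called in E against D (1) was 2 with the larger pseudocount and with each probe set tested. It was 3 with the mean of probe sets and with array weights, and 4 in a fit of these 2 populations. Among all genes, the main fit called 969 of 11951, the larger pseudocount 1053 of 11951 and the mean of probe sets 1193 of 11050. Array weights called 3142 of 11951 and the fit of 2 populations 2964 of 9624. With each probe set tested, 1824 of 28459 probe sets were called. With only the 2 populations fitted, B against A gave 3 in place of 6 and F against E 2 in place of 0. Array weights gave F against E 1. Among all genes, 1368 of 10659 were then called in B against A, in place of 3745 of 11951. For F against E the fit of 2 populations called 633 of 9547, array weights 470 of 11951 and the main fit 56 of 11951. Median centring gave 3 in B against CLP and 2 in C against B, and the mean of probe sets gave 1 in D against C. Among all genes, median centring called 3494 of 11951 in B against CLP and 2838 of 11951 in C against B. The mean of probe sets called 2541 of 11050 in D against C. The ratio change in C against B was -0.38 with the mean of probe sets (exact permutation adjusted p = 0.0577) and 0.065 with the other probe sets.

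Uncalled differences that turned sign were Irf7 in A against CLP with a pseudocount of 1 (-0.034). Under quantile normalization they were Irf2 in A against CLP (0.028), and Irf2 (0.088) and Irf3 (0.12) in B against CLP. Under median centring they were Irf1 (0.12) and Irf2 (0.14) in A against CLP, Irf3 in B against A (0.018), Irf2 (0.39) and Irf3 (0.41) in B against CLP, and Irf3 in C against B (-0.27). With the mean of probe sets they were Irf3 (-0.41) and Irf5 (0.065) in A against CLP, Irf5 in C against B (0.092), Irf3 in E against D (0.041) and Irf3 in F against CLP (-0.26). With array weights they were Irf1 (0.31) and Irf2 (0.047) in A against CLP and Irf2 in B against CLP (0.11). Without A arrays 4, 6 and 7, chosen after seeing the data, they were Irf1 (0.37) and Irf2 (0.091) in A against CLP and Irf2 in B against A (-0.12), and without B arrays 1 and 4 Irf2 in B against CLP (0.10). The causes were not tested.

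Leaving out 1 array at a time, the count ranged from 3 (without C array 5) to 5 in C against B. It ranged from 3 (without F array 1) to 5 in F against CLP. Without C array 5, 2060 of 11939 genes were called in C against B, and without F array 1, 4510 of 11909 in F against CLP. The F against E ratio change ranged from 0.21 to 0.35, and it passed without E array 2 (0.35, exact permutation adjusted p = 0.0159) and without F array 3 (0.31, exact permutation adjusted p = 0.0476). Uncalled members whose sign turned ranged in A against CLP from -0.26 to 0.12 (Irf1), -0.22 to 0.061 (Irf2), -0.15 to 0.35 (Irf3) and -0.062 to 0.32 (Irf7). In B against CLP they ranged from -0.13 to 0.037 (Irf2) and -0.098 to 0.042 (Irf3), and in B against A from -0.093 to 0.18 (Irf2) and -0.37 to 0.13 (Irf3). Irf5 ranged from -0.19 to 0.10 in C against B and Irf2 from -0.0008 to 0.15 in E against D. Calls were lost for Irf1 in C against B without C array 5 (adjusted p = 0.0744), for Irf9 in A against CLP without 1 array (adjusted p = 0.0502), and in F against CLP for Irf9 without any of 5 arrays (up to 0.0918) and for Irf1 without any of 2 (up to 0.0674), and for Irf7 in C against B (9 of 12 cases), B against CLP (6 of 14, up to 0.0725) and B against A (1 of 14, 0.0554).

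The deviations of same-numbered arrays had correlations of -0.25 to 0.22 over the 8 comparisons, and the numbers were not taken as pairs. The correlations were weak but all positive in E against D (0.037 to 0.125) and F against E (0.051 to 0.120). A shared batch by number was not tested. With the replicate block the counts were 3, 6, 5, 4, 2, 1, 0 and 5 in A against CLP, B against A, B against CLP, C against B, D against C, E against D, F against E and F against CLP. In the same order 4499, 3792, 3399, 2793, 2588, 1003, 59 and 5027 of all 11951 genes were called. In the blocked exact permutation test, where 5 pairs cannot give less than p = 0.0625, the ratio changes were -0.77 in C against B, 2.32 in D against C, -2.22 in E against D and 3.77 in F against CLP, each with adjusted p = 0.0714. Low signal limits Irf7, and array numbers of 5 to 7 limit all tests.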

Other observations

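Of 3 tested proteins of the Irf2-binding family, Irf2bpl rose by 1.12 in A relative to CLP and was higher in F than in CLP by 1.86, and Irf2bp2, a co-repressor, rose by 0.92 in A relative to CLP, fell by 0.76 in B relative to A, fell by 0.76 in C relative to B and rose by 0.97 in D relative to C. Irf2bp1 fell by 0.73 in B relative to CLP and rose by 0.80 in C relative to B.

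The interferon-stimulated genes also differed in the comparisons with CLP. Of 26 tested, 4 rose and 14 fell in A relative to CLP (4 and 5 after centring on array medians), with Ifi35 up by 1.26 and Isg20 at -2.60. In F relative to CLP 2 rose and 11 fell, with Zbp1 up by 0.78, Oas3 at -2.80 and Bst2 at -1.74. Irf9 was higher in both of these comparisons. Of all genes tested, 11.5% rose and 25.6% fell in A relative to CLP, and 15.2% and 26.7% in F relative to CLP.

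Markers of other cells were counted too. Of all genes tested, 8.81% rose and 19.1% fell in B relative to CLP. The shares were 14.2% and 8.75% in C relative to B, and 3.90% and 4.21% in E relative to D. Of 6 T cell markers 0 rose and 3 fell in B relative to CLP, and of 3 erythroid markers 0 rose and 2 fell. Of 5 plasma cell markers 3 rose and 0 fell in C relative to B, and 0 rose and 2 fell in E relative to D.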
